A study of Homo sapiens with 12 samples.

Results

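The integrated stress response was followed through 8 genes, *ATF3*, *ATF4*, *DDIT3*, *TRIB3*, *CHAC1*, *ASNS*, *DDIT4* and *PPP1R15A*, among the 26364 gene symbols counted in each library. They were taken by name, with earlier results of these data known, and all 8 passed the filter on low counts in every comparison. Total RNA of HCT116, a human colon cancer cell line, was sequenced as 12 libraries, 1 for each condition, to address how inhibitors of topoisomerases affect basal and TNFα-triggered gene expression. HCT116 WT cells and a p65-deficient single-cell clone were each left without inhibitor or received 5 µM of CPT or of ICRF193 for 2 h. CPT (camptothecin) inhibits TOP1, the enzyme that relaxes supercoiled DNA by cutting a single strand, and ICRF193 inhibits TOP2, which cuts both strands. TNFα, an inflammatory cytokine, was absent (0 h) or present at 20 ng/mL for 1 h. The study describes the clone as made with CRISPR-Cas9 and a guide to *RELA*, the gene of the NF-κB subunit p65, whereas the labels of its libraries read shRNA p65. Since 1 clone was sequenced, the loss of p65 and other properties of that clone cannot be told apart. The study describes the inhibitor as given before TNFα was added, so with CPT or ICRF193 the time with TNFα and added time with inhibitor cannot be told apart.

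In the integrated stress response, kinases that sense unfolded proteins, lack of amino acids, lack of haem or viral RNA phosphorylate the translation factor eIF2α. General translation then falls while the mRNA of the transcription factor ATF4 is translated more efficiently, and ATF4 drives genes of amino acid supply together with the stress regulators *ATF3*, *DDIT3* (CHOP), *TRIB3* and *CHAC1*. *PPP1R15A* (GADD34) recruits the phosphatase that removes the phosphate from eIF2α again. *ATF3* is also an immediate early gene that TNFα and other stimuli raise, and counts of mRNA do not measure the translation of *ATF4*.

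Between 8101212 and 22051046 reads were counted per library. The 6 WT libraries held at least 16300210, whereas 4 of the 6 p65-deficient libraries, the 3 with TNFα and the ICRF193 library at 0 h, held between 8101212 and 8755001. *RELA* mRNA was lower in every library of the clone (548 to 673 normalized counts) than in every WT library (694 to 909). Of 8 markers of colon epithelium, 6 had at least 100 reads in every library, while *VIL1* (0 to 4 reads) and *LGALS4* (0 to 13 reads) were near absent. Of 8 markers of leukocytes, fibroblasts and endothelium, 0 reached 100 reads in every library and 5 stayed at 20 reads or fewer, with *COL1A1* highest at 57 to 227 reads. A normalized count is the number of reads divided by the DESeq2 size factor of the library, which corrects for depth. It is relative to the other RNAs of the library and does not measure the amount per cell. Fewer cells that express a gene and less RNA per cell cannot be told apart in these bulk libraries.

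Per kilobase of exon, *ATF4* had the highest mean level of the 8 genes over the 12 libraries, with 2029 normalized counts per kb, followed by *ASNS* (1052), *DDIT4* (718), *PPP1R15A* (399), *TRIB3* (346), *ATF3* (223), *DDIT3* (173) and *CHAC1* (88.1). Within 1 gene, the ratio of the highest to the lowest library was 5.2 for *ATF3*, 4.5 for *CHAC1*, 2.9 for *TRIB3*, 2.7 for *PPP1R15A*, 2.5 for *DDIT4*, 2.3 for *DDIT3*, 1.9 for *ASNS* and 1.6 for *ATF4*. The most abundant gene was thus the one that varied least. The 4 CPT libraries lay apart from the 8 others for *ATF4*, *TRIB3* and *CHAC1*, all 3 lower with CPT, and the lines lay apart for *ASNS* and *DDIT4*. For *ATF3*, *DDIT3* and *PPP1R15A* neither split separated the libraries.

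**Figure D1:**
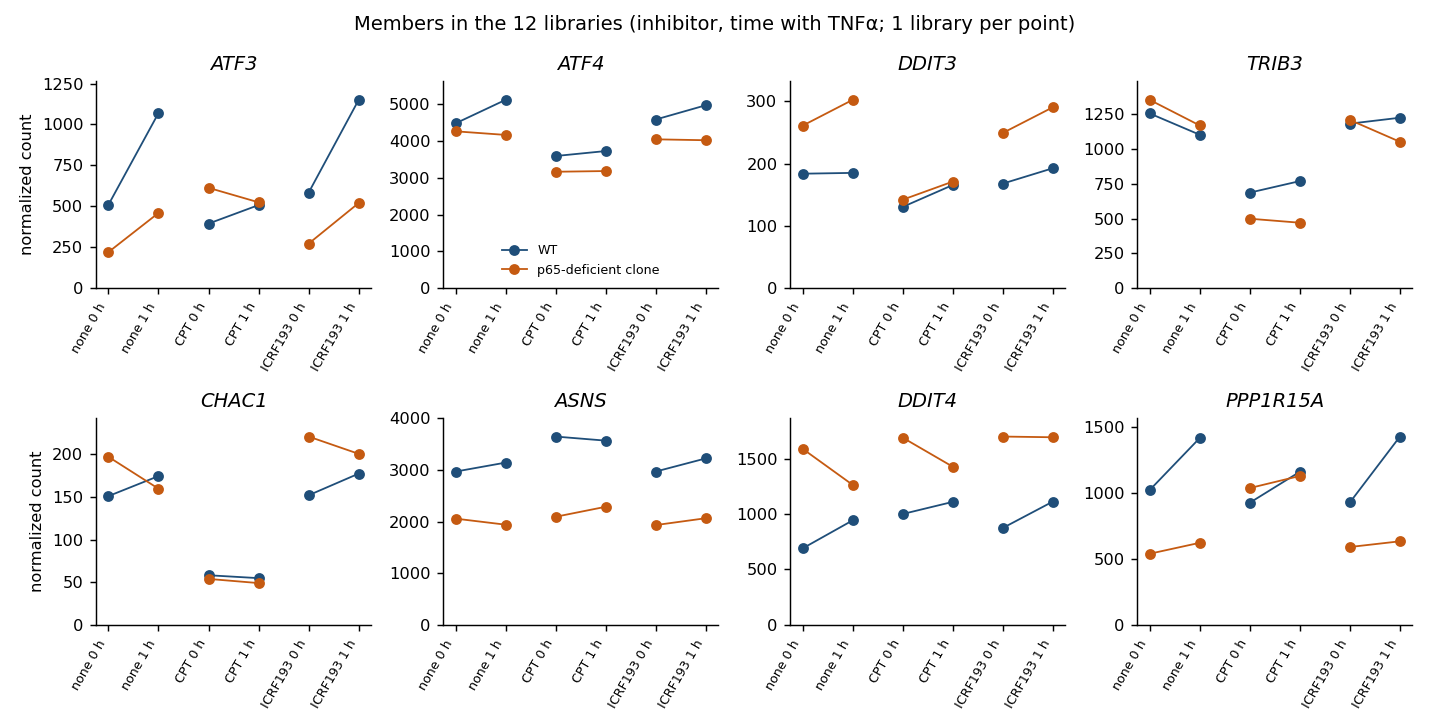
Normalized count (y axis, linear, from 0) of each of the 8 genes in the 12 libraries, ordered by inhibitor and hours with TNFα (x axis), with WT cells in blue and the p65-deficient clone in orange; a line joins the 0 h and the 1 h library of one line and inhibitor, and each point is 1 library. CHAC1 sits between 48.9 and 58.1 in all 4 CPT libraries and at 151 or more in the 8 others, and ATF3 rises with TNFα without inhibitor and with ICRF193 in both lines.

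Promoters were read from RefSeq (build GRCh38.p14) for all 8 genes, from 250 bases before to 50 bases after each annotated start, and searched on both strands for 4 short motifs. The files were counted on hg19, so these positions are not those of the count files. The motifs were the element bound by ATF4 with C/EBP factors (CARE, TGATGNAA, present in 3.62% of 35116 promoters), the cAMP response element that ATF and CREB factors bind (CRE, TGACGTCA, 1.85%), the AP-1 site (TGACTCA, 4.95%) and the κB site of NF-κB (1.91%). A CARE match was found for *ATF3*, *CHAC1* and *ASNS*, a CRE match for *PPP1R15A*, an AP-1 match for *DDIT3* (the same site in the windows of 2 starts) and no match for *ATF4*, *TRIB3* and *DDIT4*. The κB motif was found in the searched windows of none of the 8. No matches overlapped. The 250 bases before the start are shown for the 3 genes with a CARE and for *PPP1R15A*. They were chosen because *ASNS* and *CHAC1* carry the same element and had opposite signs with CPT, and *ATF3* and *PPP1R15A* moved together. The rise of *ASNS* was small and was not called in every fit. Sequences run 5′ to 3′ along the gene, with the match in capitals.
CHAC1: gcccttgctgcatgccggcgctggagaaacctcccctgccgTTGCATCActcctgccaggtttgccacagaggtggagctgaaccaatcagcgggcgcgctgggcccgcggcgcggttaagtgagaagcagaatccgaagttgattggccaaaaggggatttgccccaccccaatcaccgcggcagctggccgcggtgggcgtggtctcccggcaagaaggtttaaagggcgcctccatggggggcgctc
ASNS: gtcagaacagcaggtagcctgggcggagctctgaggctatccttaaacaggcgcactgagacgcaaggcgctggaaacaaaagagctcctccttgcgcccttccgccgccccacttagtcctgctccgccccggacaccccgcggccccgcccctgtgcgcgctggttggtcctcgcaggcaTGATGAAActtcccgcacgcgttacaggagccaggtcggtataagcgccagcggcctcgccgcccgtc
ATF3: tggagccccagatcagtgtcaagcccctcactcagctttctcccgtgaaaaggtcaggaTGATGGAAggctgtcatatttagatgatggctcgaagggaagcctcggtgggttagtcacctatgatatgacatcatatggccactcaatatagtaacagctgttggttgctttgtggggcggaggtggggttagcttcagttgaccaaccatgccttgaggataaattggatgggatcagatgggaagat
PPP1R15A: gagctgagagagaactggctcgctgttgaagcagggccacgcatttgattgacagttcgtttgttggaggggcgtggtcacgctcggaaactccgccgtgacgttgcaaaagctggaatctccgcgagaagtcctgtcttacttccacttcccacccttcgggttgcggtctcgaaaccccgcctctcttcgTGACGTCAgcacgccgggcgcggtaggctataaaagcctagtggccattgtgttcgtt
These are chr15:40953221-40953470 on the plus strand for *CHAC1*, chr7:97872409-97872658 on the minus strand for *ASNS*, chr1:212565157-212565406 on the plus strand for *ATF3*, and chr19:48872171-48872420 on the plus strand for *PPP1R15A*. Counted from -1 at the last base before the start, the match begins at -209 in *CHAC1*, where it lies on the opposite strand, and at -68 in *ASNS*, -191 in *ATF3* and -58 in *PPP1R15A*, where it reads in the direction of the gene. The CRE reads the same on both strands. *ATF3* and *ASNS* have 2 annotated starts each, and the upstream one is shown. In both genes the window of the other start held none of the 4 motifs. The counts per gene do not tell which start was used. Only the windows of these annotated starts were searched. A promoter elsewhere in the 55.44 kb that *ATF3* spans would have been missed, so the match and the missing motifs describe these windows only. A match is a description of the letters and does not show that a factor was bound.

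CPT lowered 4 of the 8 genes and raised 2. The comparison asks how inhibition of TOP1 changes these mRNAs and used 4 pairs of libraries, CPT against no inhibitor in each line at 0 h and 1 h of TNFα. *CHAC1* fell most, with a log2 fold change of -1.66 (SE 0.12, adjusted p = 9.7e-07, quasi-likelihood test of edgeR blocked on the pair, Benjamini-Hochberg over all genes), followed by *TRIB3* (-1.03, SE 0.12, adjusted p = 4.5e-05), *DDIT3* (-0.59, SE 0.13, adjusted p = 0.0025) and *ATF4* (-0.41, SE 0.04, adjusted p = 1.2e-05) in the same edgeR fit. *DDIT4* (0.24, SE 0.07, adjusted p = 0.015) and *ASNS* (0.17, SE 0.05, adjusted p = 0.016) rose, and both of these calls were lost without the pair as a block (*DDIT4* 0.21, adjusted p = 0.52; *ASNS* 0.19, adjusted p = 0.50; edgeR), which left 4 of 8. CPT changed 47.9% of the 14573 genes tested, 23.1% raised and 24.8% lowered, which is the background for the 6 of 8 called here. The median log2 fold change was -0.21 over the 8 genes and 0.02 over all genes tested. Raised and lowered are relative to the other RNAs of a library. With so many genes changed, a small rise in amount and a larger share among falling RNAs cannot be told apart. No condition has a replicate, and nothing in the labels says that libraries came from separate cultures. The spread between pairs that differ in line and TNFα therefore stands in for replicates. With 3 residual degrees of freedom, edgeR moderates the variance of a gene with that of all genes. The p-values therefore do not measure the spread of the effect of 1 gene alone.

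*CHAC1* encodes an enzyme that degrades glutathione. Its normalized count in WT cells was 151 without inhibitor and 58.1 with CPT at 0 h, and 175 and 54.7 at 1 h of TNFα. In the clone it was 197 and 53.8 at 0 h, and 160 and 48.9 at 1 h. The ratio was more than 2-fold lower in all 4 pairs, from 0.273 to 0.385. Of the 32 ratios of the 8 genes, 7 were more than 2-fold lower, 4 of *CHAC1*, 2 of *TRIB3* and 1 of *ATF3*, and 1 was more than 2-fold higher, that of *ATF3* at 0 h in the clone. Among 13823 genes, 5.48%, 5.36%, 5.38% and 6.32% were more than 2-fold lower in the pairs WT 0 h, WT 1 h, clone 0 h and clone 1 h, and 5.11%, 6.32%, 6.31% and 6.11% more than 2-fold higher. The 4 values with CPT lay within 48.9 to 58.1 although the values without inhibitor ranged from 151 to 197, and the lowest value rests on 28 reads.

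*TRIB3*, a pseudokinase that binds ATF4 and AKT, had 1256 normalized counts in WT cells without inhibitor and 686 with CPT at 0 h, and 1102 and 769 at 1 h. In the clone it had 1353 and 499 at 0 h, and 1169 and 470 at 1 h. It fell in both lines, and more so in the clone. Its log2 ratio was -0.87 (95% interval -0.99 to -0.75) and -0.52 in the 2 WT pairs, and -1.44 (-1.57 to -1.31) and -1.32 in those of the clone. The CPT effect in WT minus that in the clone was 0.72 on the log2 scale (SE 0.12, adjusted p = 0.0016, edgeR), in a fit where 4.78% of 14573 genes differed between the lines. The intervals are exact Clopper-Pearson intervals that cover counting error only and compare the 2 libraries, not the conditions.

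*ATF4*, the transcription factor at the centre of the response, had 4483 (WT 0 h), 5123 (WT 1 h), 4267 (clone 0 h) and 4169 (clone 1 h) normalized counts without inhibitor. With CPT the same 4 values were 3594, 3729, 3166 and 3185. The decline was of similar size in each pair, with ratios between 0.728 and 0.802, and the difference between the lines was 0.04 (SE 0.07, adjusted p = 0.80, edgeR). *DDIT3*, the pro-apoptotic factor CHOP, went from 184, 185, 261 and 302 normalized counts to 130, 166, 142 and 171 in the same order of pairs. Its 2 ratios in the clone (0.544 and 0.566) lay below those in WT cells (0.710 and 0.895, the latter with a log2 interval of -0.43 to 0.11), and the difference between the lines was 0.56 (SE 0.17, adjusted p = 0.071, edgeR), which passed without the WT 0 h pair (0.71, adjusted p = 0.011, edgeR) and with no filter on low counts (0.54, adjusted p = 0.042, edgeR). *DDIT3* shares 68 exonic bases with *MARS* on the opposite strand, and the counting was not set to use strand. Reads there were thus not assigned by strand, and how they were counted was not tested.

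*ASNS*, which makes asparagine and is a textbook target of ATF4, did not follow *ATF4* downwards. It had 2968, 3142, 2056 and 1939 normalized counts without inhibitor (WT 0 h, WT 1 h, clone 0 h, clone 1 h) and 3646, 3567, 2092 and 2286 with CPT. The ratio was above 1 in all 4 pairs but only just at 0 h in the clone, 1.02 with a log2 interval from -0.05 to 0.10. *DDIT4*, whose product REDD1 inhibits mTORC1, had 690, 943, 1590 and 1264 normalized counts without inhibitor and 1001, 1111, 1691 and 1428 with CPT, with ratios of 1.45 and 1.18 in WT cells and 1.06 and 1.13 in the clone. With the WT pairs alone both genes were raised (*ASNS* 0.22, adjusted p = 0.0051; *DDIT4* 0.36, adjusted p = 3.0e-05, edgeR), and with the pairs of the clone alone neither passed (*ASNS* 0.10, adjusted p = 0.11; *DDIT4* 0.11, adjusted p = 0.12, edgeR). *ASNS* also lost its call without any one of 3 pairs (WT 0 h, adjusted p = 0.066; WT 1 h, 0.053; clone 1 h, 0.078; edgeR), and the log2 fold change of *DDIT4* was 0.15 without WT 0 h. The difference in CPT effect between the lines was 0.28 for *DDIT4* (SE 0.10, adjusted p = 0.14, edgeR), which passed without the WT 1 h pair (0.44, adjusted p = 0.0014, edgeR).

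**Figure D2:**
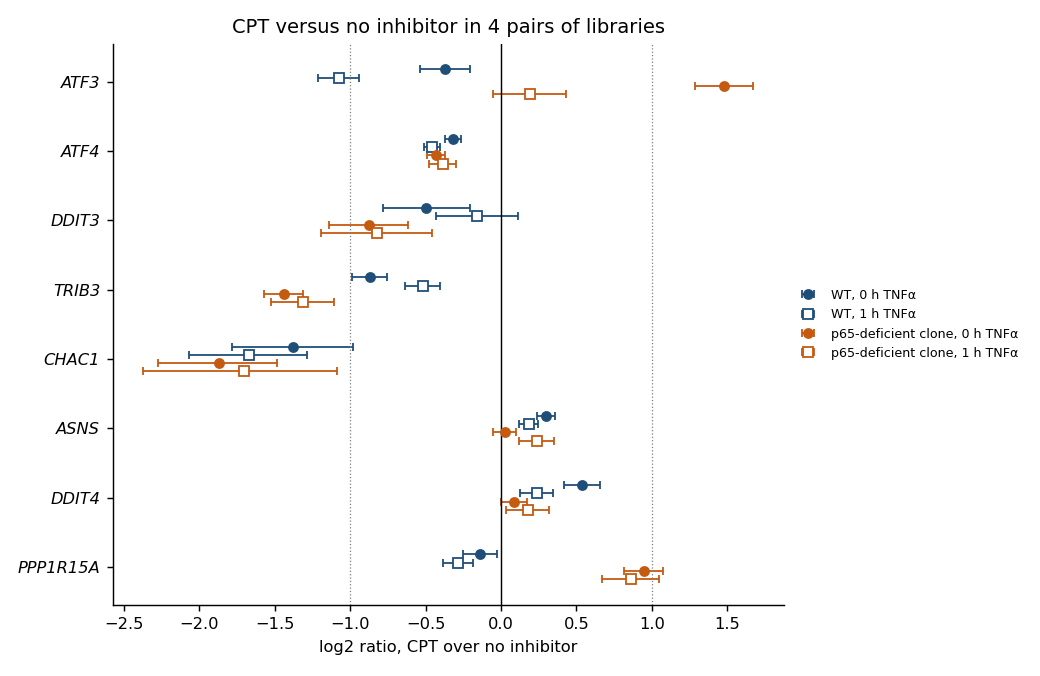
Log2 ratio of normalized counts with CPT over no inhibitor (x axis) for each gene (y axis) in 4 pairs of libraries, with WT in blue, the p65-deficient clone in orange, filled circles at 0 h and open squares at 1 h of TNFα; bars are exact 95% intervals for counting error and dotted lines mark 2-fold. CHAC1, TRIB3, DDIT3 and ATF4 lie left of 0 in all 4 pairs, whereas ATF3 and PPP1R15A lie left of 0 in WT cells and right of 0 in the clone.

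*ATF3* and *PPP1R15A* moved with CPT in opposite directions in the 2 lines. *ATF3*, a transcription factor of the ATF and CREB family, had 509 normalized counts in WT cells without inhibitor and 394 with CPT at 0 h, and 1069 and 507 at 1 h of TNFα. In the clone it had 220 without inhibitor and 613 with CPT at 0 h, and 459 and 524 at 1 h. The log2 ratio was -0.37 (95% interval -0.54 to -0.20) and -1.08 (-1.21 to -0.94) in WT cells, and 1.48 (1.29 to 1.67) and 0.19 (-0.05 to 0.43) in the clone, where the interval of the last pair held 0. Over the 4 pairs the log2 fold change was -0.01 (SE 0.29, adjusted p = 0.98, edgeR), and it passed the test without the 0 h pair of the clone (-0.51, adjusted p = 0.0034, edgeR). The CPT effect in WT minus that in the clone was -1.66 (SE 0.27, adjusted p = 0.0013, edgeR), but it was -0.93 without the 0 h pair of the clone and ranged to -2.25 without its 1 h pair. DESeq2 (-1.57, adjusted p = 0.44) and the fit without the pair as a block (-1.65, adjusted p = 0.053) did not call this difference.

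*PPP1R15A* had 1019 normalized counts in WT cells without inhibitor and 924 with CPT at 0 h, and 1413 and 1158 at 1 h. In the clone it had 537 and 1035 at 0 h, and 620 and 1126 at 1 h. CPT thus went with a level close to that of WT cells in a clone that was low without it. The log2 ratios were -0.14 and -0.29 in WT cells and 0.95 and 0.86 in the clone, and the difference between the lines was -1.10 (SE 0.10, adjusted p = 4.1e-06, edgeR), with -1.18 to -1.03 on leaving out any pair. Over the 4 pairs the CPT effect on *PPP1R15A* was 0.29 (SE 0.17, adjusted p = 0.18, edgeR), and without the WT 1 h pair it passed (0.52, adjusted p = 0.028, edgeR). Within each line, the CPT effect was called for both genes in fits chosen after the data were seen, at -0.77 for *ATF3* (SE 0.09, adjusted p = 2.0e-16) and -0.24 for *PPP1R15A* (SE 0.08, adjusted p = 0.0069) in WT cells and at 0.94 (SE 0.14, adjusted p = 4.7e-07) and 0.89 (SE 0.07, adjusted p = 2.7e-13) in the clone, all with edgeR. Each of these fits rests on 2 pairs and leaves 1 residual degree of freedom, and they called 41.4% and 52.7% of the genes tested. The 2 log2 ratios of *ATF3* within a line lay far apart, -0.37 and -1.08 in WT cells and 1.48 and 0.19 in the clone. Its SEs of 0.09 and 0.14 do not cover that spread.

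ICRF193 raised 1 of the 8 genes. *DDIT4* had a log2 fold change of 0.26 (SE 0.04, adjusted p = 5.0e-05, edgeR) over 4 pairs, which share their libraries without inhibitor with the CPT pairs, at a background of 2.16% of 14101 genes called and 0.574% raised. Its normalized count went from 690, 943, 1590 and 1264 without inhibitor to 875, 1113, 1701 and 1694 (WT 0 h, WT 1 h, clone 0 h, clone 1 h), a ratio between 1.07 and 1.34 that was above 1 in each pair. *ATF3* was also higher in 4 of 4 pairs (0.17, SE 0.05, adjusted p = 0.076, edgeR) and did not pass. For the other 6 genes the log2 fold change lay between -0.05 and 0.11, the largest for *CHAC1* (SE 0.08, adjusted p = 0.68, edgeR). Without the pair as a block the call of *DDIT4* was lost (0.26, adjusted p = 1.0, edgeR).

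The direct comparison of both inhibitors shares its libraries with the 2 comparisons above. With CPT, *CHAC1* (-1.78, SE 0.14, adjusted p = 1.7e-07), *TRIB3* (-0.98, SE 0.09, adjusted p = 9.3e-07), *DDIT3* (-0.55, SE 0.12, adjusted p = 0.0019) and *ATF4* (-0.39, SE 0.05, adjusted p = 1.7e-05) were lower than with ICRF193, and *ASNS* (0.15, SE 0.05, adjusted p = 0.026) was higher, all with edgeR. These are 4 genes lower and 1 higher of 8, where 46.1% of 14526 genes differed, 25.1% lower and 21.0% higher. *ASNS* lost its call without WT 0 h (adjusted p = 0.14), WT 1 h (0.058) or clone 1 h (0.062), all with edgeR. *ATF3* (-0.93 in WT cells, 0.57 in the clone) and *PPP1R15A* (-0.18 and 0.80) again had opposite signs in the lines, in fits on 2 pairs each, chosen after the data were seen, that called 42.9% and 46.8% of genes. Over all pairs they did not pass (*ATF3* -0.26, adjusted p = 0.41; *PPP1R15A* 0.27, adjusted p = 0.15; edgeR), but both did with no filter on low counts (adjusted p = 0.0052 and 8.7e-04, edgeR). *ATF3* also passed without clone 0 h (-0.67, adjusted p = 4.5e-04), and *PPP1R15A* without WT 0 h (0.37, adjusted p = 0.018) or WT 1 h (0.50, adjusted p = 0.0017), all with edgeR. *DDIT4*, which each inhibitor raised, differed between them by -0.04 (SE 0.07, adjusted p = 0.67, edgeR).

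TNFα raised *ATF3*, *PPP1R15A* and *DDIT4* in WT cells. Their log2 fold changes over 3 pairs of libraries, 1 h against 0 h at each inhibitor, were 0.84 (SE 0.08, adjusted p = 5.0e-07), 0.47 (SE 0.05, adjusted p = 6.0e-06) and 0.31 (SE 0.06, adjusted p = 0.0032) with edgeR. These 3 of 8 genes stand against a background of 0.640% of 14226 genes called and 0.612% raised. The other 5 did not pass, with *ATF4* at 0.12 (SE 0.04, adjusted p = 0.55, edgeR), which was called without the CPT pair (0.15, adjusted p = 0.0033, edgeR). The counts rest on the pairing, since without the pair as a block 0 of the 8 genes passed at log2 fold changes of 0.88, 0.48 and 0.30, and DESeq2 called only *PPP1R15A* (0.47, adjusted p = 1.0e-05), with *ATF3* at 0.81 (adjusted p = 0.098). *DDIT4* lost its call without the pair that had no inhibitor (0.24, adjusted p = 0.20, edgeR) and without the ICRF193 pair (0.29, adjusted p = 0.051, edgeR).

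The rise of *ATF3* was 2-fold without inhibitor in both lines and small or absent with CPT. In WT cells its normalized count went from 509 to 1069 without inhibitor, from 583 to 1150 with ICRF193 and from 394 to 507 with CPT. In the clone it went from 220 to 459 without inhibitor, from 271 to 520 with ICRF193 and from 613 to 524 with CPT. The ratio of 1 h to 0 h without inhibitor was 2.10 in WT cells and 2.09 in the clone, and 0.781% and 1.33% of 13823 genes were more than 2-fold higher in these pairs. With ICRF193 it was 1.97 and 1.91, and with CPT 1.29 and 0.855. All 4 pairs without CPT thus had log2 ratios between 0.94 and 1.07, while both CPT pairs lay below, at 0.37 (95% interval 0.20 to 0.54) and -0.23 (-0.42 to -0.03).

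The effect of TNFα on *ATF3* with CPT minus that without inhibitor was -0.96 on the log2 scale (SE 0.14, adjusted p = 0.0042, edgeR). *ATF3* was the 1 of 8 genes to pass this test, at a background of 0.0339% (5 of 14766 genes). The call held without any one pair, with values from -1.28 to -0.72, and was lost with DESeq2 (-0.99, adjusted p = 0.56) and without the pair as a block (-1.11, adjusted p = 1.0, edgeR). In the clone the 0 h and 1 h libraries held 18502365 and 8154407 reads with CPT. Without inhibitor they held 20524958 and 8101212, a similar difference. The part of depth in the ratios of both pairs was not tested.

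In the p65-deficient clone, 0 of the 8 genes passed the test of TNFα over 3 pairs with edgeR, against 0.467% of 13267 genes, while 5 had an unadjusted p under 0.05 and DESeq2 called 0. *ATF3* came nearest (0.50, SE 0.13, adjusted p = 0.079, edgeR). Without the CPT pair it was called at 1.02 (adjusted p = 3.7e-17, edgeR), and with no filter on low counts at 0.49 (adjusted p = 3.7e-06, edgeR). *DDIT4* was called without the ICRF193 pair (-0.28, adjusted p = 0.0038, edgeR). The TNFα effect on *ATF3* in WT cells minus that in the clone was 0.34 (SE 0.22, adjusted p = 0.62, edgeR), which does not show that the lines respond alike.

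*DDIT4* was the 1 of 8 genes whose TNFα effect differed between the lines, by 0.50 (SE 0.09, adjusted p = 0.0092, edgeR), in a test that called 0.237% of 14766 genes. In WT cells its normalized count rose with TNFα from 690 to 943 without inhibitor, from 1001 to 1111 with CPT and from 875 to 1113 with ICRF193. In the clone it went from 1590 to 1264, from 1691 to 1428 and from 1701 to 1694. The change was upward in 3 of 3 WT pairs and downward in 3 of 3 pairs of the clone, where the last one was within counting error (log2 interval -0.13 to 0.12). The call was lost without the WT pair that had no inhibitor (0.43, adjusted p = 0.065), the WT ICRF193 pair (0.49, adjusted p = 0.10) or the clone's pair without inhibitor (0.43, adjusted p = 0.18), and without the pair as a block (0.48, adjusted p = 1.0), all with edgeR. In the 2 pairs of the clone with a decline, the 1 h library was the shallower one, and the part of depth was not tested. *PPP1R15A* had ratios of 1.39, 1.25 and 1.54 in WT cells and of 1.15, 1.09 and 1.07 in the clone (no inhibitor, CPT, ICRF193), and the difference was 0.33 (SE 0.09, adjusted p = 0.19, edgeR), which passed without the WT CPT pair (0.39, adjusted p = 0.012, edgeR).

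**Figure D3:**
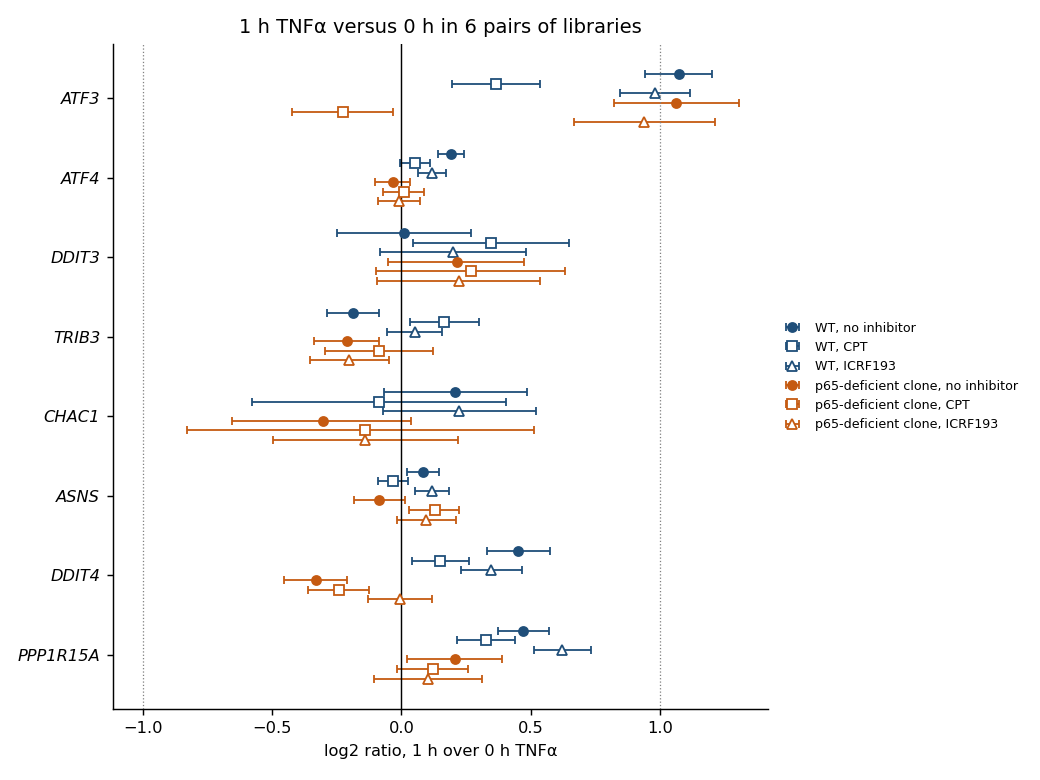
Log2 ratio of normalized counts at 1 h over 0 h of TNFα (x axis) for each gene (y axis) in 6 pairs of libraries, with WT in blue, the p65-deficient clone in orange, and no inhibitor, CPT and ICRF193 as filled circles, open squares and open triangles; bars are exact 95% intervals for counting error and dotted lines mark 2-fold. The 4 ratios of ATF3 without CPT cluster between 0.94 and 1.07 with both CPT pairs below them, and DDIT4 lies right of 0 in WT cells only.

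The p65-deficient clone differed from WT cells in 6 of the 8 genes over 6 pairs of equal treatment, where 30.2% of 14766 genes differed. *DDIT4* (0.73, SE 0.09, adjusted p = 2.2e-05) and *DDIT3* (0.44, SE 0.10, adjusted p = 0.0028) were higher in the clone, and *ASNS* (-0.65, SE 0.04, adjusted p = 3.2e-08), *ATF3* (-0.65, SE 0.20, adjusted p = 0.023), *PPP1R15A* (-0.61, SE 0.14, adjusted p = 0.0050) and *ATF4* (-0.20, SE 0.04, adjusted p = 0.0011) were lower, all with edgeR. Over all genes 14.2% were higher and 16.0% lower in the clone (2094 and 2366 genes, against 2483 and 1829 with total-count scaling). *ASNS* and *DDIT4* were the genes whose 6 libraries of one line lay apart from the 6 of the other. *ASNS* ranged from 2968 to 3646 normalized counts in WT cells and from 1931 to 2286 in the clone. *DDIT4* ranged from 690 to 1113 in WT cells and from 1264 to 1701 in the clone. Only these 2 genes were called in a fit, chosen after the data were seen, on the pairs that use the 2 deeper libraries of the clone (*ASNS* -0.66, adjusted p = 7.4e-04; *DDIT4* 0.98, adjusted p = 1.8e-04; background 3.65%, edgeR), and without the pair as a block 2 genes were called.

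For *ATF3* and *PPP1R15A* the deficit of the clone was seen in all 4 pairs without CPT and was absent or reversed with it. *ATF3* was at 0.432 and 0.429 of the WT level without inhibitor (0 h and 1 h) and at 0.465 and 0.452 with ICRF193, but at 1.56 and 1.03 with CPT. *PPP1R15A* was at 0.527 and 0.439 without inhibitor, at 0.636 and 0.443 with ICRF193, and at 1.12 and 0.973 with CPT. The test of this dependence on CPT, against no inhibitor, is the difference in CPT effect between the lines given above. *ATF3* lost its call in the comparison of the lines without any one of the 4 pairs that had no CPT (adjusted p from 0.065 to 0.096, edgeR) and with DESeq2 (adjusted p = 0.11), while on those 4 pairs alone its log2 fold change was -1.16 (SE 0.05, adjusted p = 7.9e-14) and that of *PPP1R15A* was -0.98 (SE 0.06, adjusted p = 2.2e-11), in an edgeR fit chosen after the data were seen that called 41.3% of genes. *DDIT3* had ratios of the clone to WT between 1.42 and 1.63 in the 4 pairs without CPT and of 1.09 and 1.03 with CPT. *TRIB3* stood at 0.727 and 0.611 of the WT level with CPT and between 0.859 and 1.08 in the other 4 pairs.

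**Figure D4:**
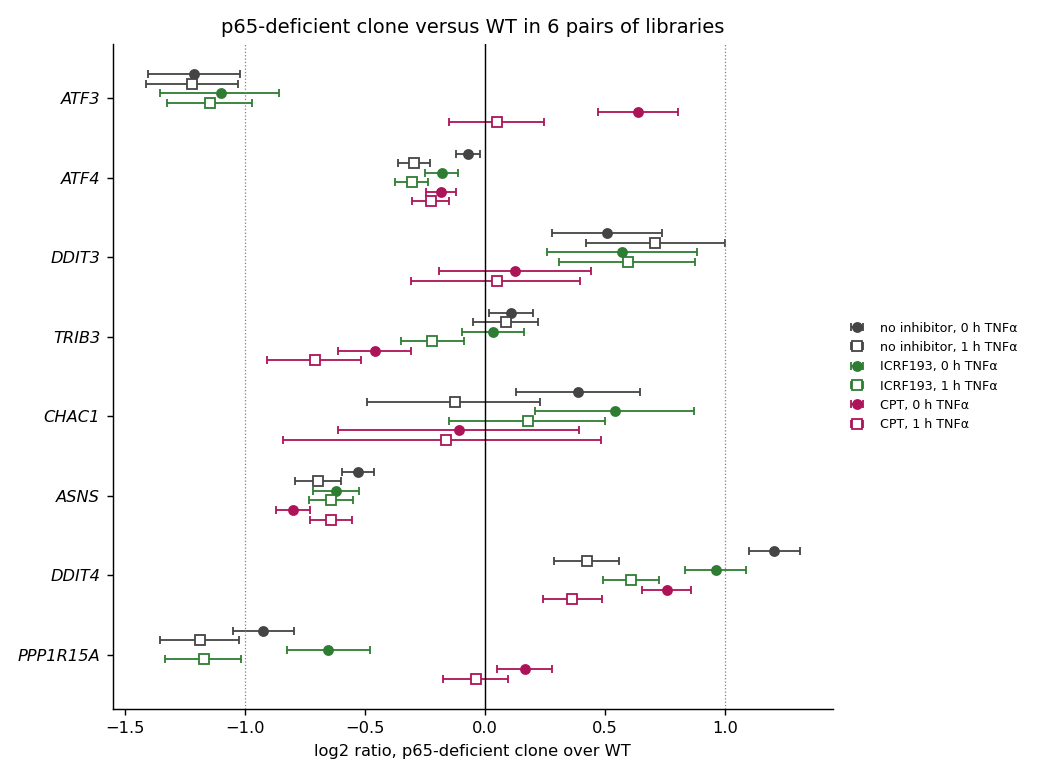
Log2 ratio of normalized counts in the p65-deficient clone over WT cells (x axis) for each gene (y axis) in 6 pairs of equal inhibitor and TNFα, with no inhibitor in grey, ICRF193 in green, CPT in magenta, filled circles at 0 h and open squares at 1 h; bars are exact 95% intervals for counting error and dotted lines mark 2-fold. ATF3 and PPP1R15A lie left of 0 in all 4 pairs without CPT and near or right of 0 with CPT, whereas ASNS lies left of 0 and DDIT4 right of 0 in all 6 pairs.

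On hg19 the 8 genes lie on 8 chromosomes, and the span of a gene is given here with its direction under CPT. The genes that CPT lowered span 2.13 kb (*ATF4*, chromosome 22, 39916564 to 39918691), 3.08 kb (*CHAC1*, chromosome 15, 41245636 to 41248717), 3.93 kb (*DDIT3*, chromosome 12, 57910371 to 57914300) and 16.93 kb (*TRIB3*, chromosome 20, 361273 to 378203). The raised genes span 2.12 kb (*DDIT4*, chromosome 10, 74033677 to 74035797) and 20.43 kb (*ASNS*, chromosome 7, 97481429 to 97501854). *ATF3* spans 55.44 kb (chromosome 1, 212738676 to 212794119) and *PPP1R15A* 3.67 kb (chromosome 19, 49375649 to 49379319).

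Over the 12 libraries, the levels of *TRIB3* and *CHAC1* (Pearson r = 0.92 on log2 normalized counts), of *ATF4* and *TRIB3* (0.87), of *ATF3* and *PPP1R15A* (0.83) and of *ATF4* and *CHAC1* (0.80) followed each other most closely among the 28 pairs of genes, while *ASNS* and *DDIT4* ran in opposite directions (-0.77). These values are descriptions over libraries that share treatments and lines. Among 10221 other genes with a mean of at least 100 reads, those with the pattern most like *ATF3* were *MESDC1* (0.86), *CXCL8* (0.84), which encodes the chemokine IL-8, and *MAFF* (0.83). Patterns nearest to *CHAC1* were those of *ZNF616*, *NANP* and *HYLS1* (0.991 to 0.997), and for *TRIB3* those of *SPECC1L*, *ZNF672* and *AKAP1* (0.986 to 0.990). For *ATF4* they were *AKIRIN1*, *PTRH2* and *NOCT* (0.979 to 0.987), for *DDIT3* *RBM12B*, *SPICE1* and *ZNF251* (0.960 to 0.973), for *ASNS* *BSPRY* and *SCD* (0.981 to 0.992), for *DDIT4* *METTL21B*, *RAB38* and *RNF215* (0.925 to 0.944), and for *PPP1R15A* *CYR61*, *C11orf54* and *EIF4B* (0.928 to 0.939). *ATF3* thus had no gene as close to it as any of the other 7 members had.

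Genes that act around the members were read from 6 lists without the members themselves. Among 13 genes of eIF2α kinases and eIF2 machinery, CPT lowered 2 and raised 3, a smaller share than the 47.9% called over all genes. *PPP1R15B*, the constitutive counterpart of *PPP1R15A*, had a log2 fold change of -1.24 (SE 0.05, adjusted p = 1.4e-08), and *EIF2AK3*, the eIF2α kinase PERK of the endoplasmic reticulum, one of -1.05 (SE 0.10, adjusted p = 4.8e-06), both with edgeR. *EIF2B2* (0.23) and *EIF2S3* (0.13), subunits of eIF2B and eIF2, rose. The decline of *PPP1R15B* was present in WT cells (-1.06 and -1.24) and in the clone (-1.31 and -1.30), where *PPP1R15A* rose.

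Of 19 genes of amino acid synthesis and transport that ATF4 controls, CPT raised 7 and lowered 2, where 23.1% of all genes were raised and 24.8% lowered. The biosynthetic enzymes *SHMT2* (0.22, SE 0.05, adjusted p = 0.0040) and *PSPH* (0.20, SE 0.06, adjusted p = 0.024) rose, as *ASNS* did, and the transporters *SLC38A2* (-1.42, SE 0.08, adjusted p = 1.4e-07) and *SLC7A1* (-0.34, SE 0.05, adjusted p = 1.6e-04) fell, all with edgeR. *CBS*, 1 of the 7, held 0 to 40 reads per library and had a log2 fold change of 3.96 (SE 0.63, adjusted p = 3.4e-04, edgeR). Of 13 aminoacyl-tRNA synthetase genes with the exporter XPOT, CPT raised 6, among them *WARS* (0.21) and *NARS* (0.18), against the same 23.1%. Of 17 tested genes among 20 other targets of ATF4 and CHOP, 8 were lowered and 1 raised, against 24.8% and 23.1%. *STC2*, a secreted glycoprotein (-0.91, SE 0.07, adjusted p = 1.2e-06), and *CREBRF* (-0.89, SE 0.18, adjusted p = 0.0018) fell most, and *EIF4EBP1*, a repressor of cap-dependent translation, rose (0.19, SE 0.05, adjusted p = 0.0086), all with edgeR. The median log2 fold change with CPT was 0.07, 0.06, 0.09 and -0.21 over these 4 lists in the order given, against 0.02 over all genes tested.

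**Figure D5:**
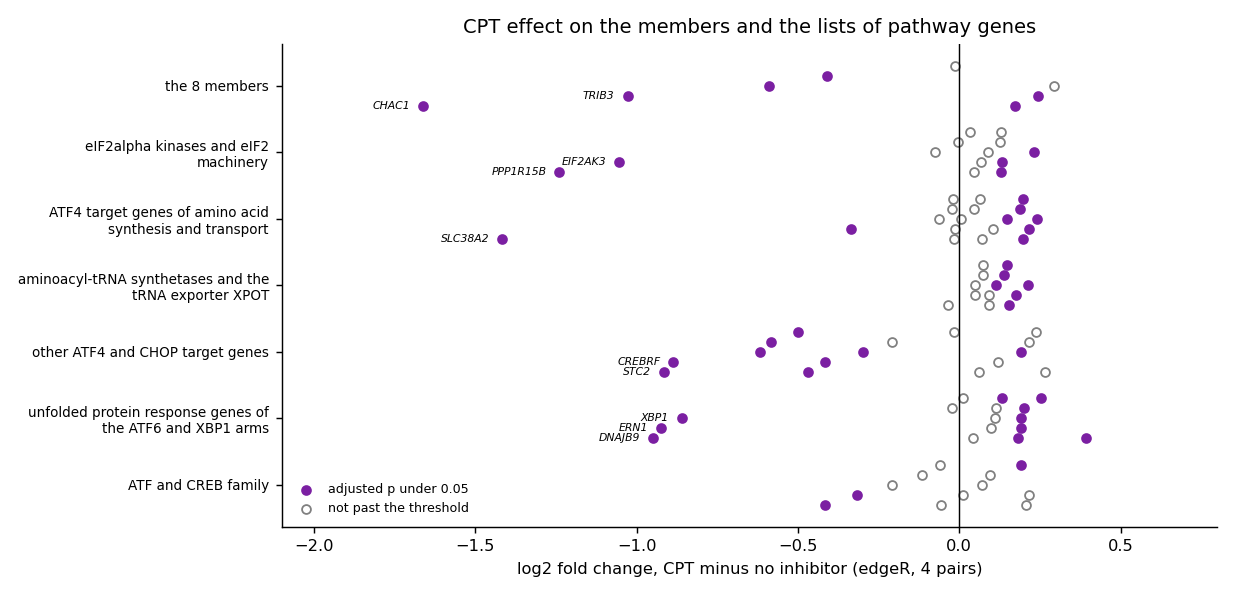
Log2 fold change of CPT against no inhibitor from the edgeR fit on 4 pairs (x axis) for the 8 members and for the genes of 6 lists (rows, spread vertically only to separate points), filled where the adjusted p was under 0.05; genes with a mean under 20 reads are left out, and genes past -0.8 are named. Among the genes drawn, the lowered ones reach further from 0 (down to -1.66) than the raised ones (up to 0.39). CBS, at 3.96 with 0 to 40 reads per library, is among the genes left out.

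In the unfolded protein response arms of ATF6 and XBP1, CPT raised 7 of 16 genes and lowered 3, where 23.1% of all genes were raised and 24.8% lowered. The secreted chaperone-like factors *CRELD2* (0.39, SE 0.07, adjusted p = 5.5e-04) and *MANF* (0.25, SE 0.05, adjusted p = 0.0015) rose, and the co-chaperone *DNAJB9* (-0.95, SE 0.13, adjusted p = 1.2e-04) and the sensor kinase *ERN1* (-0.92, SE 0.14, adjusted p = 2.0e-04) fell, all with edgeR. In the ATF and CREB family, 13 of 15 genes were tested, with *ATF6B* raised (0.19) and *ATF1* (-0.42) and *ATF2* (-0.32) lowered, a smaller share than the 47.9% called over all genes. The medians of these lists were 0.11 and -0.06.

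Between the lines, 12 of the 13 tRNA synthetase and exporter genes were lower in the clone, with log2 fold changes from -0.41 to -0.10, and *NARS* was the exception (-0.06, adjusted p = 0.20, edgeR). *WARS* stood at -0.30 (adjusted p = 2.9e-05, edgeR). The list had a median of -0.20 where all genes tested had 0.005, and the background was 16.0% of genes lower. With only the 2 deeper libraries of the clone, 3.65% of all genes were called in either direction. The part of depth in these small differences was not tested. Of the 19 amino acid genes, 8 were lower and 3 higher in the clone, where 16.0% of all genes were lower and 14.2% higher. ICRF193 raised 4 of the 17 other targets and lowered 1, where 2.16% of all genes were called and 0.574% raised. *GDF15* (0.44, adjusted p = 8.6e-14), *SESN2* (0.328), *BBC3* (0.285) and *STC2* (0.211) rose and *CEBPD* (-0.403) fell, with edgeR. In the other lists it raised only *EIF2AK2* (0.169) and lowered only *SLC38A2* (-0.185). TNFα in WT cells raised 3 of the 17 other targets, *STC2* (0.26), *GDF15* (0.28) and *BBC3* (0.51), with edgeR, where 0.612% of all genes were raised. The CPT effect differed between the lines for 4 of the 17 other targets (*CEBPD*, *ATF5*, *BBC3* and *VEGFA*), where 4.78% of all genes differed, all 4 with a more negative change in WT cells (*ATF5* -0.82, adjusted p = 0.0030; *VEGFA* -0.60, adjusted p = 0.0016; edgeR). It differed in the opposite direction for 3 of the 19 amino acid genes, *SLC38A2* (0.42, adjusted p = 0.0091), *GPT2* (0.36, adjusted p = 0.037) and *SLC7A11* (0.34, adjusted p = 0.043), with edgeR. Apart from *STC2* and *SLC38A2*, the genes given here for ICRF193, for TNFα and for the CPT effect between the lines were named after their values were seen.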

How the data were processed

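The 12 HCT116 libraries were measured by RNA-seq. Per the file headers, the authors deposited raw counts of reads on the exons of 26364 gene symbols (hg19, featureCounts 1.5.0), without normalization, from reads cut with trimmomatic. The library kit was stranded, but the counting command set no strand. STAR and deepTools are also among the tools in the submitters' processing notes.

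No condition has a replicate, so edgeR 4.0.16 (TMM, filterByExpr, quasi-likelihood test, Benjamini-Hochberg, adjusted p under 0.05) was run over all genes on matched pairs as blocks. Libraries that differ only in the factor compared form a pair. This pairing comes from the treatments and not from replicate numbers. The quasi-likelihood test shares variance between genes, and the main fits left 2 to 5 residual degrees of freedom. Fits on the pairs of 1 line left 1. The SE of a log2 fold change is its value over the root of the F statistic. Ratios of 2 libraries used DESeq2 1.42.0 size factors over 12 libraries, no pseudocount, and exact Clopper-Pearson 95% intervals, with a background of genes with at least 20 reads in any library. Between 8101212 and 22051046 reads were counted per library, and counts without molecular identifiers limit the intervals to counting error. The scripts were tested on simulated data.

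The members and lists were chosen with earlier results of these data known. All 8 members are named. From each list, the 2 genes raised and the 2 lowered most by CPT past the threshold are named, with a mean of at least 20 reads and 1 direction in 4 pairs. For each member, the 3 genes with the highest Pearson correlation of log2(normalized count + 1) are named, except 1 gene that is not reported here. Alternatives were RLE and total-count scaling, no filter, DESeq2, no block, leaving out each pair, and a pseudocount of 1 for ratios. Fits on the pairs of 1 line, on pairs without CPT and on the deeper libraries were added after the data were seen. Columns other than counts hold no values per sample. edgeR and DESeq2 ran in R 4.3.3, ratios and intervals in Python 3.11.15 with scipy 1.17.1, and plots were drawn with matplotlib 3.10.9.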

Additional observations from a re-analysis of the deposited data

Results flagged for a closer look

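The effect of CPT differed between WT cells and the p65-deficient clone for 3 of the 8 genes in a test of the difference itself (edgeR, CPT effect in WT minus that in the clone). It was -1.66 for *ATF3* (adjusted p = 0.0013), -1.10 for *PPP1R15A* (adjusted p = 4.1e-06) and 0.72 for *TRIB3* (adjusted p = 0.0016). *ATF3* and *PPP1R15A* were lower with CPT in 2 of 2 WT pairs and higher in 2 of 2 pairs of the clone, and *TRIB3* was lower in all 4 pairs. The rise of *ATF3* at 1 h in the clone was within counting error. The difference for *ATF3* was not called with DESeq2 (adjusted p = 0.44) or without the pair as a block (adjusted p = 0.053, edgeR).

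The effect of TNFα on *ATF3* differed with CPT from that without inhibitor by -0.96 (adjusted p = 0.0042, edgeR), and both CPT pairs lay below the 4 others. This call was lost with DESeq2 (adjusted p = 0.56) and without the pair as a block. The effect of TNFα on *DDIT4* differed between WT cells and the clone by 0.50 (adjusted p = 0.0092, edgeR), upward in 3 of 3 WT pairs and downward in 3 of 3 pairs of the clone. The ICRF193 pair of the clone was within counting error. The *DDIT4* call was lost without the pair as a block and on leaving out any one of 3 pairs.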

How the results depend on the processing

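Under scaling, filter, tool, block and added subset fits, 46 of 56 counts of called members or of ratios past 2-fold stayed within 1.5 times of the reported one. The exceptions were ICRF193 (1 reported, 0 with no block), TNFα in WT cells (3 reported, 1 with DESeq2, 0 with no block), TNFα in the clone (0 reported, 1 with no filter), TNFα by line (1 reported, 2 with no filter, 0 with no block), TNFα by CPT (1 reported, 0 with DESeq2, 0 with no block) and the clone against WT (6 reported, 2 with no block, 2 with the deeper libraries only). The paired block is the reported fit here, and the fit with no replicate block is the alternative. Over all genes, ICRF193 called 304 genes (83 with DESeq2, 3 with no block) TNFα in WT cells 91 (26, 0), TNFα in the clone 62 (2, 0, and 143 with no filter), TNFα by line 35 (10, 0, 132), TNFα by CPT 5 (1, 1, 32), CPT by line 696 (148, 343, 1096), and the clone against WT 4460 (2043 with no block). The split of raised and lowered genes was 81 and 223 for ICRF193 (100 and 166 with total counts) and 35 and 27 for TNFα in the clone (22 and 26 with RLE, 25 and 11 with total counts).

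The direction turned for CPT on *ATF3* (0.001 with total counts, 0.039 with DESeq2, 0.935 in the clone alone) and *PPP1R15A* (-0.237 in WT alone). For ICRF193 it turned for *PPP1R15A* (0.002 with total counts, 0.003 with no block, 0.086 in the clone alone), *TRIB3* (0.031 in WT alone) and *ASNS* (-0.003 in the clone alone). For CPT against ICRF193 it turned for *DDIT4* (0.067) and *PPP1R15A* (-0.184) in WT alone and *ATF3* (0.568) in the clone alone. With TNFα it turned for *TRIB3* in WT (0.0 with RLE, 0.005 with DESeq2), *ATF4* in the clone (0.021 with total counts), *ASNS* by line (-0.04 with total counts, -0.002 with no block), and, between the lines, *TRIB3* (0.02 without CPT). The cause was not tested.

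Leaving out each pair gave 5 to 7 called members for CPT, 1 for ICRF193, 4 to 6 for CPT against ICRF193, 2 to 4 for TNFα in WT cells, 0 to 1 in the clone, 0 to 2 by line, 1 by CPT, 3 to 4 for CPT by line and 5 to 6 for the clone against WT. Values that turned ranged from -0.507 to 0.412 (CPT, *ATF3*), from -0.043 to 0.046 (ICRF193, *PPP1R15A*), from -0.009 to 0.035 (ICRF193, *ASNS*), from -0.669 to 0.143 (CPT against ICRF193, *ATF3*), from -0.102 to 0.043 (the same, *DDIT4*), from -0.075 to 0.102 (TNFα in WT, *TRIB3*) and from -0.009 to 0.005 (TNFα in the clone, *ATF4*). For TNFα by line they ranged from -0.176 to 0.587 (*ATF3*), from -0.139 to 0.031 (*DDIT3*) and from -0.065 to 0.047 (*ASNS*). For TNFα by CPT they ranged from -0.126 to 0.014 (*ATF4*), from -0.276 to 0.12 (*CHAC1*), from -0.317 to 0.091 (*DDIT4*) and from -0.094 to 0.171 (*ASNS*), and for CPT by line from -0.027 to 0.116 (*ATF4*). Of 192 ratios, 25 passed 2-fold, with 25 under TMM, 26 with total counts and 25 with a pseudocount. *CHAC1* at 28 to 75 reads with CPT has the widest intervals.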
